A study of Rattus norvegicus with 6 samples.

Results

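Hox genes encode homeodomain transcription factors that give cells their position along the body axis. The array held 20 probe sets whose single gene symbol named a Hox gene of cluster a, b, c or d, out of 31099 probe sets in all. They stood for 18 of 13683 genes named by a single symbol. The rule that picked them reads the symbol and no measured value, although Hox genes were taken up with earlier results of these data known. The tissue was the rostral ventrolateral medulla. It came from 3 spontaneously hypertensive rats (SHR), whose blood pressure climbs with age, and from 3 rats of the normotensive strain usually set beside them, written Wistar-Kyoko in the labels (WKY). Each of the 6 Affymetrix arrays, with probes near the 3' end of each transcript, held the tissue of 1 animal. Both strains were untreated and weighed 250 to 350 g, and neither age nor sex is given in the labels. The labels do not say how the tissue block was cut, so its level in each animal is not known. Only the transcripts bear on it here.

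The rostral ventrolateral medulla lies in the caudal hindbrain and holds the neurons that drive sympathetic outflow to heart and vessels. In the embryo each Hox cluster is switched on in the order of its genes. Paralogue number names the place of a gene in that order: low numbers have their front edge of expression in the hindbrain, middle numbers near the junction with the spinal cord, and high numbers within the cord. In mouse this pattern persists in part in the adult brainstem, so the Hox transcripts in a piece of tissue can be read as a mark of its rostrocaudal position.

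Hox transcripts of low and middle paralogue number were detected in the tissue, and those of high number almost never were. A probe set was taken as detected when its call was Present on at least 3 of the 6 arrays, and 8 of the 20 Hox probe sets met this, against 67.0% of all 31042 probe sets that were not array controls. The 8 had paralogue numbers from 2 to 6. They were Hoxb2, Hoxd3, Hoxa4, Hoxc4, Hoxa5 and Hoxb5, each Present on all 6 arrays (as were 57.0% of all probe sets), and Hoxc5 and Hoxb6, each Present on 1 SHR and 3 WKY arrays. Hoxc5 and Hoxb6 thus passed through their calls in WKY, so their inclusion favours a lower SHR value. The 7 probe sets of paralogues 7 to 13 gave 1 Present call in 21 on SHR arrays and 1 in 21 on WKY arrays. The 12 probe sets of paralogues 2 to 6 gave 20 Present calls of 36 on SHR arrays and 28 of 36 on WKY arrays. The single paralogue 1 probe set, for Hoxd1, was Present on no array.

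**Figure D1:**
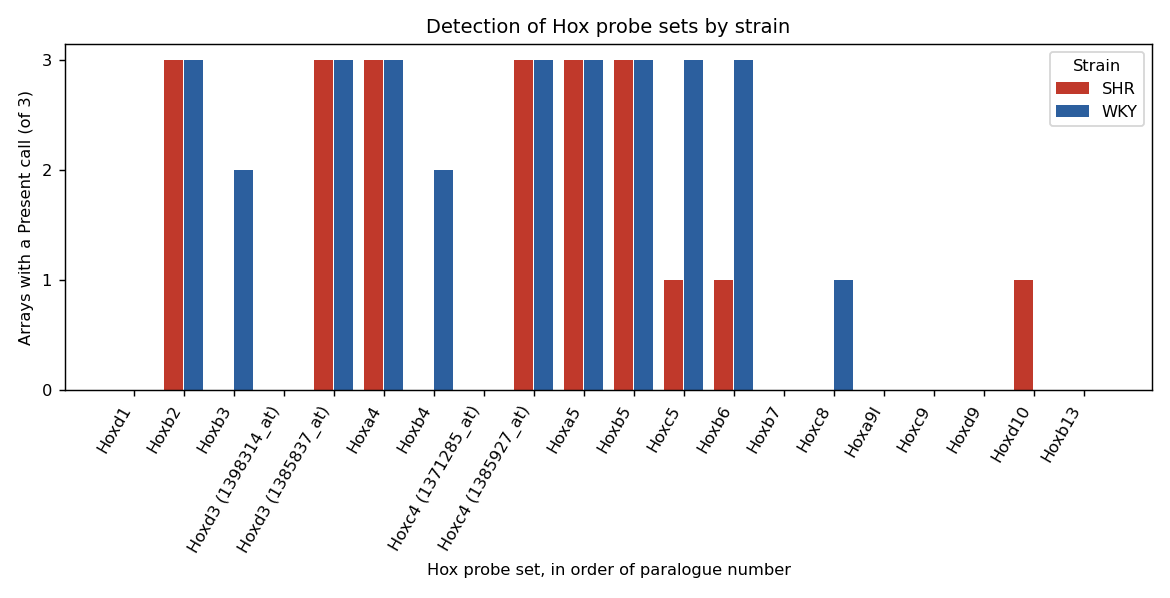
Bars give the number of arrays with a Present call, of 3 SHR (red) and 3 WKY (blue), for each of the 20 Hox probe sets in order of paralogue number. Present calls lie almost wholly in paralogues 2 to 6, and from 7 upward each strain has 1 Present call in 21.

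The 6 probe sets that were Present on every array averaged lower in SHR than in WKY, each of them, by 0.35 to 1.52 on the log2 scale. None passed the test at an adjusted p under 0.05. The test was limma's, fitted on 20790 detected probe sets with Benjamini-Hochberg adjustment over all of them. It called 0 of the 8 detected Hox probe sets, where 0.924% of all tested probe sets were called. At an unadjusted p under 0.05 it found the 6 sets that were Present on all arrays, each lower in SHR. That rule and direction were met by 4.70% of all tested probe sets and by 4.82% of those Present on all arrays. Differences below 0 made up 49.7% of all tested probe sets. The called count became 2 without SHR replicate 2, as given with Hoxb5 and Hoxa5. Because these are bulk samples, fewer cells expressing a gene and less RNA per cell cannot be told apart.

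The paralogue 2 gene Hoxb2, which in mouse patterns the front of the Hox-expressing hindbrain and its facial motor neurons, had tight values within each strain. It was read at chromosome 10, 84005292 to 84005720 on the + strand (Rnor5.0, used for all probe set positions). Its log2 signals were 8.78, 8.94 and 8.81 in the SHR animals 1, 2 and 3, against 9.43, 9.32 and 9.23 in the WKY animals 1, 2 and 3. All SHR animals lay below all WKY animals. The means were 8.84 ± 0.09 in SHR and 9.32 ± 0.10 in WKY (SD over 3 animals each), a difference of -0.48 ± 0.11 (SE), or 1.39-fold lower. This had the smallest p of the Hox probe sets, 0.00113 before and 0.0908 after adjustment (limma), and ranked 259 among the tested probe sets.

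Paralogue 3 genes act in mouse in the formation of the caudal hindbrain, pharyngeal arches and upper neck. The detected Hoxd3 set (chromosome 3, 68135580 to 68135819) had log2 signals of 6.62, 7.23 and 7.11 in SHR, against 7.51, 7.72 and 7.76 in WKY, again with no overlap. Its difference was -0.68 ± 0.21 (SE; limma, adjusted p = 0.247). A second Hoxd3 set, at 68134220 to 68134565, was Absent on every array, with 4.49 ± 0.89 in SHR and 4.23 ± 1.23 in WKY (SD over 3 animals each). The Hoxb3 set (chromosome 10, 83998029 to 83998449) was Present on no SHR and 2 WKY arrays. Its signals of 7.05, 7.66 and 7.37 in SHR overlapped those of 8.31, 7.37 and 7.72 in WKY.

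Paralogue 4 genes have their front edge in the caudal medulla in mouse embryos. Hoxa4 (chromosome 4, 146825071 to 146825982, - strand) read 7.95, 8.37 and 8.03 in SHR, against 8.60, 8.37 and 8.44 in WKY. SHR animal 2 lay 0.006 above the lowest WKY animal, so the strains just overlapped, and the difference was -0.35 ± 0.15 (SE; limma, adjusted p = 0.499). Hoxc4 (chromosome 7, 142440929 to 142441486) separated more: 7.63, 8.90 and 8.59 in SHR, against 9.28, 9.28 and 9.07 in WKY. SHR animal 1 stood far below the other animals of its strain there. The Hoxc4 difference was -0.84 ± 0.26 (SE; limma, adjusted p = 0.261), and -0.47 without SHR replicate 1. A second Hoxc4 set, aligned at 75.8% identity, was Absent throughout yet ran the same way, at 6.60 ± 0.69 in SHR and 7.66 ± 0.18 in WKY (SD over 3 animals each). Hoxb4, which is also known for its action in blood stem cells, was Present on 2 WKY arrays and no SHR array. It read 5.70, 7.40 and 7.03 in SHR, against 7.80, 7.41 and 7.61 in WKY, where the nearest animals of the strains differed by less than 0.01. The Hoxb4 probe set aligned at 82.4% identity.

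Hoxb5 and Hoxa5, of paralogue 5, gave the largest differences of the detected Hox sets, while that of Hoxc5 was smaller than those of Hoxc4 and Hoxd3. In mouse, Hoxa5 and Hoxc5 maintain the phrenic motor neurons that drive the diaphragm, and Hoxb5 acts in the neural crest that forms the gut's nervous system. Hoxb5 (chromosome 10, 83957062 to 83957468) read 6.71, 8.55 and 7.51 in SHR, against 9.36, 9.22 and 8.75 in WKY. The strains did not overlap, and the SHR animals spanned 1.85 against 0.61 in WKY. Means were 7.59 ± 0.93 in SHR and 9.11 ± 0.32 in WKY (SD over 3 animals each), so the SHR signal was 34.8% of that in WKY. The difference of -1.52 had a 95% interval of -2.35 to -0.69 and an adjusted p of 0.123 (limma). It became -2.0 without SHR replicate 2 and was then called, at an adjusted p of 0.00802, and -1.08 without SHR replicate 1.

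Hoxa5 aligns to chromosome 4 at 146837213 to 146839735 and to 1 further place in Rnor5.0. It read 7.14, 8.48 and 7.47 in SHR, against 8.97, 8.86 and 8.24 in WKY. SHR animal 2 lay above WKY animal 3, so the strains overlapped. The difference was -0.99 ± 0.32 (SE; limma, adjusted p = 0.279). Without SHR replicate 2 it was -1.39 and called, at an adjusted p of 0.0324. Hoxc5 (chromosome 7, 142421501 to 142421758) read 6.69, 7.50 and 6.64 in SHR, against 7.54, 7.82 and 7.18 in WKY, with overlap and a difference of -0.57 ± 0.27 (SE; limma, adjusted p = 0.559).

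Hoxb6, a trunk-patterning gene and the highest-numbered one detected, was dim (chromosome 10, 83952524 to 83952961). It read 5.91, 6.34 and 6.25 in SHR, against 6.25, 6.82 and 6.69 in WKY, and differed by -0.42 ± 0.27 (SE; limma, adjusted p = 0.694). Over the 8 detected sets, 4 had all SHR animals below all WKY animals, where 7.76% of all tested probe sets did. These 4 were Hoxb2, Hoxd3, Hoxc4 and Hoxb5. Over the 20 Hox sets, 6 did, with Hoxb4 and the Absent Hoxc4 set added, where 6.63% of all 31042 probe sets did.

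**Figure D2:**
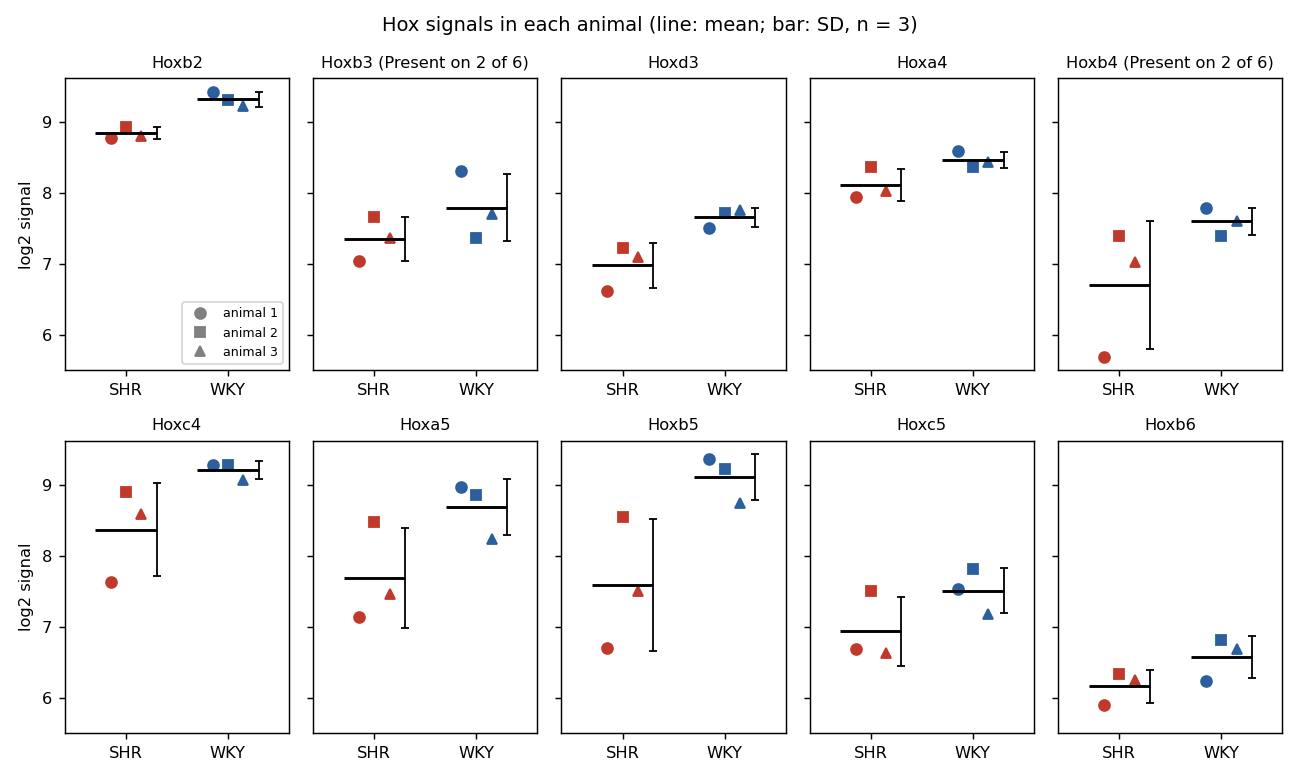
Each point is the log2 signal of 1 animal for the 8 detected Hox probe sets and for Hoxb3 and Hoxb4, with SHR (red) left of WKY (blue), the mean as a line and the SD as a bar (n = 3). SHR animals lie below WKY animals without overlap for Hoxb2, Hoxd3, Hoxb4, Hoxc4 and Hoxb5, and the SHR points spread most for Hoxb5.

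The SHR animals kept 1 order across the 6 sets Present on every array, with animal 1 lowest and animal 2 highest. SHR animal 1 was the lowest of the 6 animals for all 6 probe sets Present on every array. Averaged over these 6 sets, the log2 signal was 7.47, 8.41 and 7.92 in SHR animals 1, 2 and 3, against 8.86, 8.79 and 8.58 in WKY animals 1, 2 and 3. SHR animal 2 lay nearest to WKY. On average over these sets, the animals stood farther apart at paralogues 4 and 5 than at 2 and 3. For the 2 sets of paralogues 2 and 3, the mean deviation from the average of all animals was -0.50, -0.12 and -0.24 in SHR, against 0.27, 0.31 and 0.29 in WKY. For the 4 sets of paralogues 4 and 5 it was -1.05, 0.17 and -0.51 in SHR, against 0.65, 0.52 and 0.22 in WKY.

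Over these 6 sets, the spread between animals of 1 strain was also widest in paralogues 4 and 5, apart from Hoxa4. The pooled within-strain SD was 0.09 for Hoxb2, at percentile 20.2 of the tested probe sets, where the median was 0.17. It was 0.24 for Hoxd3, 0.18 for Hoxa4, 0.47 for Hoxc4, 0.57 for Hoxa5 and 0.69 for Hoxb5, the last at percentile 97.8. The dimmer Hoxc5 and Hoxb6, detected on fewer arrays, had 0.41 and 0.27, less than Hoxb5. The 95% intervals of the Hoxb2 and Hoxb5 differences meet at their ends, at -0.72 for Hoxb2 and -0.69 for Hoxb5, and whether the 2 differ was not tested. Over the 6 sets, paralogue number and the strain difference had a Pearson correlation of -0.69 and a Spearman correlation of -0.74 (n = 6 probe sets read on the same animals). Over the 8 detected sets these were -0.24 and -0.14, and over all 20 sets, undetected ones included, they were of the opposite sign, at 0.52 and 0.23.

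**Figure D3:**
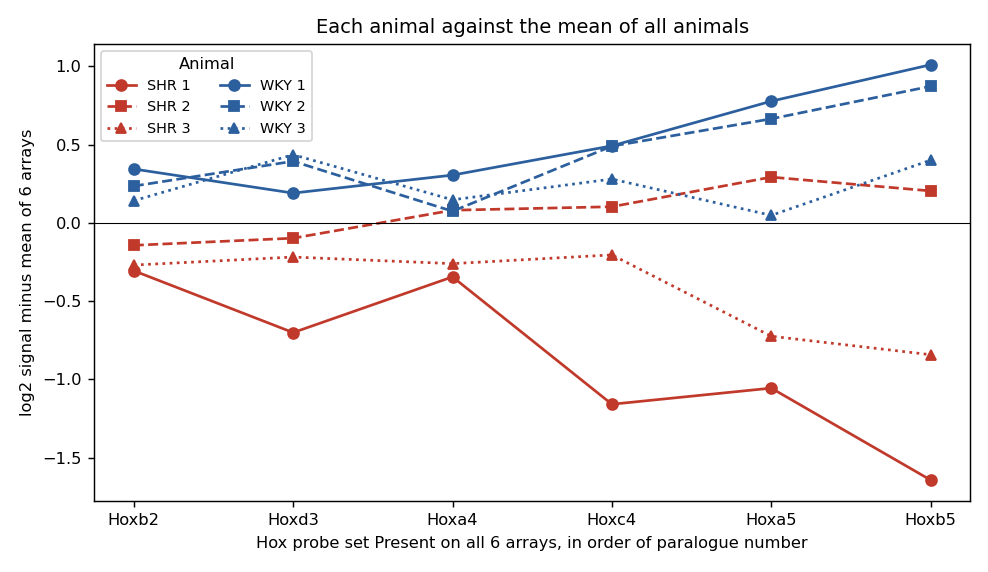
Lines join, for each animal, its log2 signal minus the mean of the 6 animals, for the 6 Hox probe sets Present on every array in order of paralogue number (SHR red, WKY blue). The lines run from -0.70 to 0.44 over Hoxb2, Hoxd3 and Hoxa4 and open to between -1.64 and 1.01 at Hoxb5.

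None of the 7 probe sets of paralogues 7 to 13 was detected, and neither were 5 sets of lower number. Hoxc8 and Hoxc9 set brachial and thoracic motor neuron identity in mouse, and Hoxd9 and Hoxd10 act at lumbar levels. Hoxc9, Hoxd9 and the set listed as Hoxa9l, now named Hoxa9 in RefSeq, were Absent on all arrays. Hoxb7 was Absent on all arrays too, at 5.30 ± 0.44 in SHR and 5.82 ± 0.92 in WKY (SD over 3 animals each). Its probe set aligned at only 65.4% identity, that of Hoxc8 at 75.6% and that of Hoxc9 at 86.0%. The only member sets of paralogues 7 and 8 were thus both weakly aligned. Those of Hoxa9l, Hoxd9, Hoxd10 and Hoxb13 aligned at 96.8% or more. Hoxc8 was Present on WKY array 3 alone, at a log2 signal of 4.83, and Hoxd10 on SHR array 1 alone, at 5.99. These single calls fall in opposite strains.

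Among the undetected sets, those of the highest paralogue numbers had wide intervals. In a fit of all 31042 probe sets with no detection filter, Hoxb13, a tail-end gene Absent on all arrays, differed by 2.13 with a 95% interval of -0.26 to 4.53 (limma, adjusted p = 0.687). Its signals were 2.21, 1.98 and 4.44 in SHR, against 0.37, 0.58 and 1.28 in WKY, all far under the array medians. Hoxd9 differed by -1.17 with an interval of -3.77 to 1.44 (limma, adjusted p = 0.858). Hoxd1, which in mouse shapes pain-sensing neurons, read 6.53 ± 0.18 in SHR and 6.59 ± 0.19 in WKY (SD over 3 animals each) and was Absent throughout. Over the 20 Hox probe sets together, 16 differences were below 0 and 4 above, where 48.5% of all 31042 were below 0. The median was -0.46, against 0.01 over all those probe sets. The same fit called 0 of the 20 (limma; 0.445% of all), and 8 had an unadjusted p under 0.05, all lower in SHR, where 3.77% of all probe sets met that rule in that direction.

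**Figure D4:**
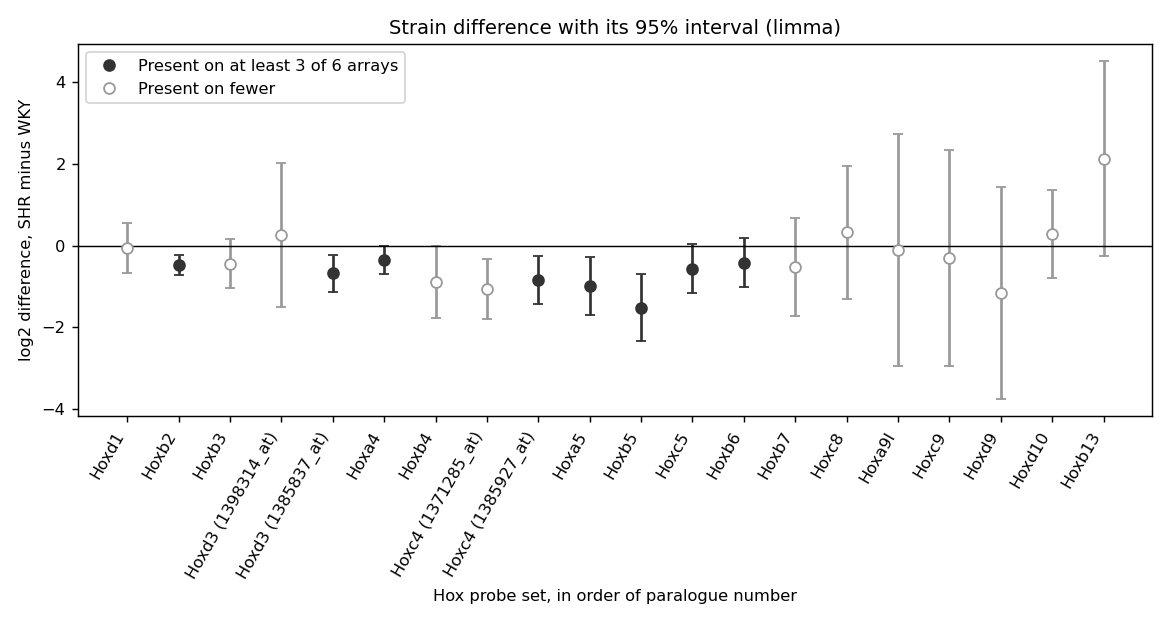
Points give the log2 difference, SHR minus WKY, with its 95% interval from limma for the 20 Hox probe sets in order of paralogue number. Filled points are Present on at least 3 arrays and open points, taken from the fit without a filter, on fewer. The filled points run from -0.35 to -1.52, and the open points from paralogue 7 upward have intervals that include 0.

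Start regions of the genes were read from RefSeq (build GRCr8), which held 7 of the 18 genes. They are shown for 3 genes Present on every array and for Hoxd10, which was Present on 1 array. Those of Hoxa9l, Hoxd1 and Hoxd9, genes Present on no array, are not shown, so the windows below do not compare detected with undetected genes. Each window runs from 250 bases before to 50 after the annotated start, in the 5' to 3' direction of the gene. Capitals mark matches, on either strand, to 3 motifs: TGATNNAT, a site of Pbx with a Hox partner, TGACAG, a site of Meis proteins, and AGGTCA, a half-site of retinoic acid receptors and other nuclear receptors. Hoxa4 was matched by symbol and the others by gene ID. The windows are chr4:82622253-82622552 (- strand), chr7:136048809-136049108 (+), chr3:80045876-80046175 (+) and chr3:80001697-80001996 (+), in the order shown.
Hoxa4: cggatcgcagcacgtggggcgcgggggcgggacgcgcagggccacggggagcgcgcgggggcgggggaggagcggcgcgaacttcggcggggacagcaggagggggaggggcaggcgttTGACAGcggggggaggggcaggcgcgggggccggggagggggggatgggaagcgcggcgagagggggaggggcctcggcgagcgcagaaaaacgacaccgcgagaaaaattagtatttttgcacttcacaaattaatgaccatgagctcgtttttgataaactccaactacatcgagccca
Hoxc4: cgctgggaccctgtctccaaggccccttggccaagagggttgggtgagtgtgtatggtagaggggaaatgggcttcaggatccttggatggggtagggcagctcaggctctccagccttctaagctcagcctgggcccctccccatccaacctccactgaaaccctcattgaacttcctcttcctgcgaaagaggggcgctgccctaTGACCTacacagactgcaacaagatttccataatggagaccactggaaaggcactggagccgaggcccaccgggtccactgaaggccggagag
Hoxd3: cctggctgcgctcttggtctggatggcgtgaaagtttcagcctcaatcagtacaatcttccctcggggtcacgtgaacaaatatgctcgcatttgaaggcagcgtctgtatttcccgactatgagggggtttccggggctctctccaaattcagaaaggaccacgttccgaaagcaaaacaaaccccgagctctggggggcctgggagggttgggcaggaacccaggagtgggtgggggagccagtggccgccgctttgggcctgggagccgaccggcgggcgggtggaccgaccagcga
Hoxd10: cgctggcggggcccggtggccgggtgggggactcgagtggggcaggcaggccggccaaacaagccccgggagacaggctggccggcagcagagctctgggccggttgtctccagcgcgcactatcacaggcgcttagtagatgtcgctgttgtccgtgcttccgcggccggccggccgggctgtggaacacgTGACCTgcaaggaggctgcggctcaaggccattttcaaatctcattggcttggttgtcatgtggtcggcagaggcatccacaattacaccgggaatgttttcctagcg

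The Hoxa4 window held 1 TGACAG, beginning at base 120, and the Hoxc4 window 1 AGGTCA on the reverse strand, at base 208. The Hoxd10 window also held 1 AGGTCA on the reverse strand, at base 193, and the Hoxd3 window held no match. No 2 matches overlapped. Among all 33469 promoter windows of this table, 19.0% held TGACAG, 16.2% held AGGTCA and 9.10% held TGATNNAT. The windows shown were rich in G and C, at 67.3% for Hoxa4, 59.0% for Hoxc4, 60.7% for Hoxd3 and 64.7% for Hoxd10, against a median of 51.7%. CpG pairs numbered 34, 6, 19 and 24 in that order, against a median of 7. The windows not shown, of Hoxa9l, Hoxd1 and Hoxd9, held no match to the motifs. Their G and C made up 49.0%, 70.0% and 62.7% in that order.

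Genes that act with Hox proteins were measured in the same fit. Hox proteins bind DNA with Pbx and Meis partners, and of 6 detected cofactor genes limma called none, with 5 differences above 0, 1 below and a median of 0.04. Pbx3 was the exception in direction, at 11.90, 11.87 and 11.43 in SHR, against 12.15, 12.17 and 12.24 in WKY. All SHR animals lay below all WKY animals, and the difference was -0.45 ± 0.11 (SE; limma, adjusted p = 0.12; unadjusted p = 0.00198). Meis2 differed by 0.06 ± 0.07 (SE; limma, adjusted p = 0.836). The lowest animal for Pbx3 was SHR animal 3, not SHR animal 1. The summed cofactor level, log2 of the summed linear signals, weighs Pbx3 most, as the brightest of the 6. It ran from 12.98 to 13.18 in SHR and from 13.24 to 13.28 in WKY. Its lack of overlap is thus not separate from that of Pbx3.

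Retinoic acid sets the front edges of Hox genes in the embryo. Of 12 detected genes of its synthesis, binding and breakdown, limma called none and none had an unadjusted p under 0.05, with 8 above 0, 4 below and a median of 0.10. The smallest p-values were those of Cyp26b1, which degrades retinoic acid (0.14 ± 0.07), and Stra6, a receptor for retinol carrier protein (0.50 ± 0.25; SE). Of 8 detected genes of hindbrain segmentation and upstream control limma called none. There 1 had an unadjusted p under 0.05, Gmnn, the geminin gene, at -0.37 ± 0.13 (SE; limma, adjusted p = 0.369), and Egr2, a factor of hindbrain segments, differed by 0.54 ± 0.29. Of 11 detected Polycomb and MLL genes, which keep Hox clusters silent or active, limma called none and none had an unadjusted p under 0.05. Their median was -0.02, with Ezh2 at -0.23 ± 0.19 and Rnf2 at -0.16 ± 0.15 (SE).

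Of 16 forebrain and midbrain genes on the array, 7 were Present on no array, among them Emx1, Emx2, Otx1, Six3 and Tbr1. Of the 5 detected, limma called none and the median was 0.15. Lhx9 read 0.49 ± 0.23 (SE; limma, adjusted p = 0.54) and Nkx2-1 read -0.51 ± 0.40 (adjusted p = 0.764) as SHR minus WKY. Of 10 detected factors of hindbrain neurons limma called none, none had an unadjusted p under 0.05, and the median was 0.04. The smallest p-values there were those of Nkx2-2 (0.10 ± 0.11; SE) and Lhx1 (0.20 ± 0.28).

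Most markers of the labelled region, 10 of 12 on the array, were detected. Th, Dbh and Pnmt, which make catecholamines, and Slc17a6, the glutamate transporter of its neurons, were Present on all 6 arrays. Slc6a5, the transporter of glycine neurons, and Slc6a2, the noradrenaline transporter, were Present on none. Of 10 detected markers of this region limma called none, 8 differences were below 0 and 2 above, and the median was -0.13, with Dbh at -0.54 ± 0.25 and Penk at -0.34 ± 0.17 (SE). Their summed level ran from 13.26 to 13.85 in SHR and from 13.62 to 14.10 in WKY on the log2 scale.

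In 2 marker lists every detected gene lay on 1 side of 0. All 7 detected motor neuron markers were above 0, with a median of 0.24, none called and 2 with an unadjusted p under 0.05 (limma), the calcitonin gene peptides Calca and Calcb. How many of all tested probe sets met that rule above 0 was not counted. Isl2, 1 of the 7, was Present on 3 SHR arrays and 1 WKY array. It thus passed through its calls in SHR, so its inclusion favours a higher SHR value. Calca read 12.01, 11.25 and 12.06 in SHR, against 10.69, 10.67 and 11.29 in WKY, and Calcb 10.60, 9.54 and 10.30 in SHR, against 9.21, 9.27 and 9.44 in WKY. Both peptide genes were thus lowest, within SHR, in animal 2, the SHR animal with the highest Hox signals. The summed motor neuron level ran from 13.47 to 14.35 in SHR and from 13.45 to 13.79 in WKY. All 9 detected oligodendrocyte markers were below 0, with a median of -0.08, none called and 3 with an unadjusted p under 0.05 (limma), among them the myelin genes Mobp at -0.17 and Cldn11 at -0.12. Of all tested probe sets, 49.7% were below 0, and 4.70% were lower in SHR at an unadjusted p under 0.05 (limma). The summed oligodendrocyte levels of 16.51 to 16.59 in SHR and 16.62 to 16.72 in WKY did not overlap. The summed motor neuron levels of the strains overlapped. The part of either cell type in the Hox differences was not tested.

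SHR animal 2 also stood apart in Ttr, the choroid plexus transthyretin gene, at 9.38 against 6.51 and 6.83 in the other SHR animals and 6.59 to 6.62 in WKY. Choroid plexus markers as a list held 4 detected genes, with a median of 0.11, Folr1 at -0.46 and Kl Present on no array. Folr1 went the other way in SHR animal 2. It read 6.40, 5.87 and 6.14 in SHR, against 6.88, 6.24 and 6.65 in WKY, so animal 2 was the lowest of all. Animal 2 was also the lowest SHR animal for Gfap, the astrocyte filament, at 11.26 against 12.65 and 12.51 in the other SHR animals and 12.45 to 12.75 in WKY.

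In the other cell-type lists limma called no gene and the summed levels of the strains overlapped. Cerebellar cells had 9 detected markers of 11 on the array and a median of -0.02, with Gabra6 and Zic2 Present on no array and the calcium-binding Pvalb at 0.23. Meninges had 5 and 0.07, led by Col1a1 at -0.41 and Foxc1 at -0.34. Astrocytes had 7 and 0.06, with the calcium-binding S100b at -0.14 the only gene of these lists with an unadjusted p under 0.05. Neurons had 7 and 0.02, led by Snap25 at -0.09 and Rbfox3 at 0.13. Endothelium had 4 and -0.10, led by Tek at -0.17 and Cldn5 at -0.13, and microglia had 7 and 0.06, led by Aif1 at -0.17 and P2ry12 at 0.21. The part of these cell types in the Hox differences was not tested.

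**Figure D5:**
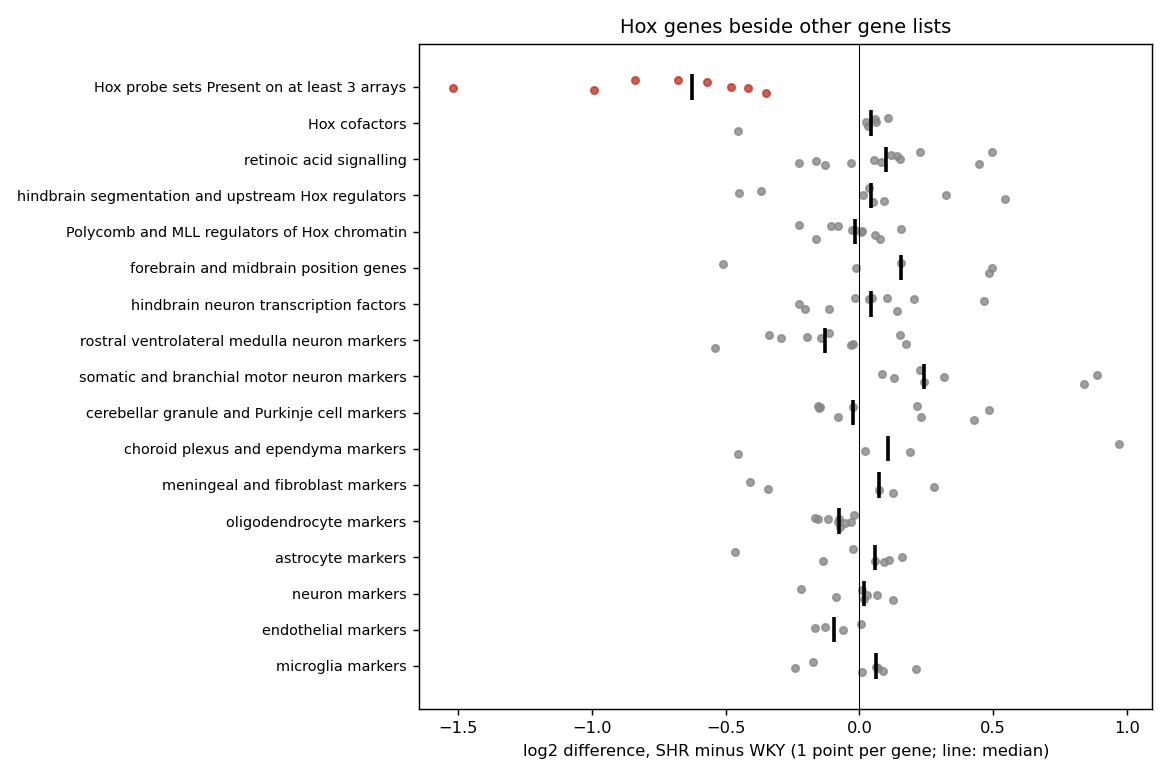
Points give the log2 difference, SHR minus WKY, of each detected gene in 16 lists, with the median as a line and the 8 detected Hox probe sets (red) in the top row. The Hox points lie between -1.52 and -0.35 with a median of -0.62, against list medians between -0.13 and 0.24. Single genes of other lists also fall inside the Hox range, such as Dbh at -0.54. Others lie above 0, such as Ttr at 0.97. Of the Hox points, Hoxc5 and Hoxb6 passed the filter through WKY.

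The arrays were close in Present share and differed in a control of RNA quality. Between 65.5% and 67.0% of probe sets were Present in SHR and between 64.8% and 65.7% in WKY, so fewer Hox calls in SHR went with slightly more Present calls in all. The number of Hox probe sets Present was 7 on each SHR array, against 9, 10 and 10 on the WKY arrays 1, 2 and 3. The 3' minus 5' difference of the Gapdh control, a sign of RNA integrity, was 0.26 to 0.32 in SHR and 0.23 to 0.27 in WKY on the log2 scale. That of the actin control was 1.69, 1.39 and 1.24 in SHR animals 1, 2 and 3, against 1.29 to 1.39 in WKY. It was thus highest in SHR animal 1 and lowest in SHR animal 3, the animals with the lowest and next lowest Hox signals. That of the hexokinase control was 0.83 to 1.08 in SHR and 1.50 to 1.72 in WKY, without overlap. The part of these controls in the Hox differences was not tested. Each strain was represented by its own 3 tissue blocks, so strain and the level at which the blocks were cut cannot be told apart in this design.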

How the data were processed

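The authors deposited log2 signals with a Present, Marginal or Absent call per probe set, and linear signal intensities. The submitters' processing notes name MAS5 as the tool, without a version. The deposited log2 values equalled log2 of the deposited intensities floored at 1, to within 8.2e-06, and the 2% trimmed mean of the intensities was 500.0 on each array. MAS5 signals are noisy near background, so errors can be wide there. Of 31099 probe sets, 57 controls were left out. Probe sets Present on at least 3 of 6 arrays (20790) were fitted with limma 3.58.1 in R 4.3.3 (lmFit, eBayes with a variance trend, strain as the factor, 2-sided, Benjamini-Hochberg). Differences are SHR minus WKY. The submitters' design text counts 3 rats of each strain for the 6 samples, so n counts animals, and their number limits the precision.

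Hox genes were named by the deposited symbols, and listed genes were updated through gene IDs to RefSeq (GRCr8). Where a listed gene had several detected probe sets, the one with the highest mean signal stood for it. Coordinates are the deposited Rnor5.0 alignments. The probe sets described in full were the detected ones, plus the 3 with the smallest p and the 3 with the largest differences over the 20. In each list the 2 genes with the smallest p were named, except for a result not reported here. Hoxb3, Hoxb4 and other undetected sets were named for their calls. The members and lists were chosen with earlier results of these data known. The fit was tested on simulated data. Probe sets with several symbols were left out of the members.

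Alternatives were other normalizations, pseudocounts of 16 and 64, other filters, other variance models, the deposited intensities in place of the log2 table, a replicate block and leaving out each animal.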

Additional observations from a re-analysis of the deposited data

How the results depend on the processing

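With each animal left out in turn, limma called 0 to 2 detected Hox probe sets, and 2 only without SHR replicate 2 (Hoxb5 and Hoxa5); every other setting run gave 0. With each animal left out, 5 to 7 of the 8 had an unadjusted p under 0.05, and the 6 sets Present on every array averaged lower in SHR. Hoxc5 and Hoxb6 did too, but had passed the filter through WKY. These 2 counts were followed after seeing the data. Without a filter 16 of 20 averaged lower. The median over all 20 sets was -0.46, ran from -0.63 to -0.36 with an animal left out, was -0.28 with a pseudocount of 64, and was -0.76 over the 6 sets Present on all arrays, which are fewer. The 8 detected sets gave 126 differences over the settings run, each below 0. They come from the same arrays, and settings such as the variance models leave a difference unchanged, so they are not separate support. The detected number ran from 6 (Present on all arrays) to 12 (Present on at least 1). With the replicate number as a block, limma called 0 of 8, 6 had an unadjusted p under 0.05, and the calls over all probe sets numbered 196 against 192. Over all probe sets the calls numbered 63 without a variance trend and ran from 78 to 205 with an animal left out. Animals of the same number share only that number: their deviations correlated at 0.08, -0.01 and 0.07, and 3 of 6 animals correlated best with their own number. With 3 animals a strain the 95% interval of Hoxb5 ran from -2.35 to -0.69.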

Other observations

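A further 20 probe sets aligned inside the spans of the 4 Hox clusters on Rnor5.0 but carried no symbol, several symbols or another symbol. Of these, 6 were Present on at least 3 arrays, 4 of them on all 6. The set shared by Hoxa2, the gene that in mouse sets the second pharyngeal arch, and LOC100911443 read 7.39, 7.46 and 7.64 in SHR, against 7.75, 7.85 and 7.79 in WKY. The strains did not overlap, and the difference was -0.29 ± 0.16 (SE; limma, adjusted p = 0.618). LOC100911474, next to it on chromosome 4 at 146804495 to 146805346, read 9.07, 9.02 and 8.87 in SHR, against 9.42, 9.29 and 9.13 in WKY, a difference of -0.29 ± 0.11 (SE; limma, adjusted p = 0.423).

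In the d cluster, a set without a symbol on chromosome 3 at 68118591 to 68119265 read 7.19, 8.46 and 7.03 in SHR, against 8.20, 8.43 and 7.77 in WKY. Its SHR animals overlapped WKY. SHR animal 2 was the highest of all animals, whereas in Hoxb5 it was highest only within SHR, and SHR animal 3 was the lowest. The order of SHR animals in the Hox sets Present on every array thus did not hold here, nor in the sets of Hoxa2 and LOC100911474. A second set without a symbol, at 68141756 to 68142119, read 7.65 ± 0.06 in SHR and 7.54 ± 0.19 in WKY (SD over 3 animals each), a difference of 0.11 ± 0.17 (SE; limma, adjusted p = 0.891). That order of SHR animals did hold there, with animals 1 and 3 nearly equal. The sets shared by Hoxa9 or Hoxa11 with other symbols were Present on no array.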
